A study of Mus musculus with 9 samples.

Results

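The ATF4 circuit of the stress response was described here by 10 genes, Atf4, Atf5, Ddit3, Atf3, Cebpb, Trib3, Sesn2, Chac1, Ppp1r15a and Nupr1. They were found by their symbols among the 54532 genes of the expression table, where Ddit3 has a second entry of 105 bases that was listed at 0 in every library, so that 11 entries carry a member's name. RNA had been sequenced from primary cells labelled as male germ cells and titled spermatocytes of mice at PD 35, in 9 libraries. The groups were 3 libraries labelled ClpX knockout (ClpX cKO below), 3 labelled ClpP knockout (ClpP cKO) and 3 labelled WT (control). Both deletions were made with Stra8-Cre, whose promoter is active in germ cells, so that somatic cells of the testis keep the genes. Strain, age beyond PD 35, the alleles that the controls carry, the way the cells were isolated and the origin of the replicates are not given, and p-values therefore measure only the spread between these libraries, which may be technical. ClpX is the unfoldase and ClpP the protease of a pair that degrades proteins in the mitochondrial matrix.

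ATF4 is a bZIP transcription factor made when kinases of the integrated stress response phosphorylate the translation factor eIF2alpha: most protein synthesis then falls, while upstream reading frames in the Atf4 mRNA let its own translation rise. Kinases of this family sense amino acid shortage, unfolded protein in the endoplasmic reticulum, haem shortage, viral RNA and, through the relay of DELE1, mitochondrial stress. ATF4 pairs with C/EBP factors on DNA and induces genes of amino acid supply together with further factors (Ddit3, Atf3, Atf5, Cebpb), inhibitors (Trib3, Sesn2), an enzyme (Chac1) and the phosphatase subunit that ends the response (Ppp1r15a). Since ATF4 is controlled largely at translation, an mRNA level is not a measure of its protein.

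Sequence was taken from RefSeq (GRCm38.p6) for windows of 250 bases before to 50 bases after each gene start, which held all 10 members in 11 windows. The composite element bound by C/EBP and ATF factors, searched as TGATGNAA on both strands, stood in the windows of Atf3, Chac1, Nupr1 and Trib3, that is in 4 of 10 members, against 4.51% of 27025 genes and 3.97% of 32851 windows. The cAMP response element TGACGTCA stood in 1 member, Ppp1r15a, against 2.03% of genes. The members were chosen as genes of the ATF4 circuit, so these shares describe the list and test nothing. The 2 motifs did not overlap in these windows. The runs below show these sites, in capitals, 5′ to 3′ on the strand of the gene, where the composite element appears as its reverse complement. The Atf3 run is chr1:191183390-191183489 on the minus strand, the Chac1 run chr2:119351003-119351102 on the plus strand, the Nupr1 run chr7:126625562-126625591, the Trib3 run chr2:152344028-152344057 and the Ppp1r15a run chr7:45526269-45526326, all 3 on the minus strand. The Nupr1 site lies in an annotated exon. The Trib3 site begins at base 15 from the RefSeq start, and lies upstream of the Trib3 span in the expression table, which begins at 152344032 on the minus strand. Only short runs are shown for these 2 genes.
Atf3: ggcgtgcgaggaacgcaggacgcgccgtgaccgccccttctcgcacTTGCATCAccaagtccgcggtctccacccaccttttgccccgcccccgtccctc
Chac1: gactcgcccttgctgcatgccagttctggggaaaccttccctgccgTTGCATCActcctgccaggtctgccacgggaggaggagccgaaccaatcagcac
Nupr1: aaagggccagaTTGCATCAgacagggcttg
Trib3: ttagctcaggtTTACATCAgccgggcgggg
Ppp1r15a: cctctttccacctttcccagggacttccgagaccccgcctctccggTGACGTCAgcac
For comparison, Atf4 (chr15:80255084-80255183, plus strand) and Sesn2 (chr4:132510502-132510601, minus strand), whose levels differed between the groups at high read numbers, held neither motif in their windows.
Atf4: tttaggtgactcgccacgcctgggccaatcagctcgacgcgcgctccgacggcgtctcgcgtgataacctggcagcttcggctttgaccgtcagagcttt
Sesn2: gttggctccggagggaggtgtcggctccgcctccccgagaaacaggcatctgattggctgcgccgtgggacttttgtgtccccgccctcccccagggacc

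Libraries held 14334436 to 17021685 gene reads. The targeted gene Clpx was at 15.6, 11.3 and 13.2 FPKM in ClpX cKO, 40.3, 36.2 and 36.0 FPKM in ClpP cKO and 59.3, 55.7 and 54.7 FPKM in control libraries, lowest where it was deleted. Clpp was at 12.8, 12.5 and 14.1 FPKM in ClpX cKO, 5.16, 6.15 and 3.69 FPKM in ClpP cKO and 9.36, 8.46 and 9.36 FPKM in control libraries, lowest in its own knockout. FPKM is a read count per gene length and library size. The libraries also differed in markers of other cells and stages. The marker sums below followed the group order of the Atf4 and Sesn2 means, with the order of the spermatid sums reversed. The summed level of 19 Sertoli cell markers was 1598 to 2199.6 FPKM in ClpX cKO, 1262 to 1429.6 FPKM in ClpP cKO and 927 to 965 FPKM in control libraries, and all 18 tested markers rose in both knockouts (17 of 18 in ClpP cKO after quantile normalization). Immune markers summed to 80.8 to 99.2 FPKM in ClpX cKO, 53.6 to 77.9 FPKM in ClpP cKO and 41.6 to 48.2 FPKM in control libraries, and 9 of 9 tested rose in ClpX cKO and 4 of 9 in ClpP cKO (7 of 9 when libraries were scaled by their own total of gene reads). Spermatogonial markers summed to 138 to 169.7 FPKM in ClpX cKO, 120 to 138 FPKM in ClpP cKO and 90.5 to 98.9 FPKM in control libraries, and 12 of 14 rose and 1 fell in ClpX cKO and 9 of 14 rose in ClpP cKO. The spermatogonial marker that fell in ClpX cKO was Gfra1, a receptor of stem spermatogonia (-0.34, limma adjusted p = 0.023), chosen after its value was seen and not called under quantile normalization or own totals. Elongating spermatid markers summed to 2003 to 3019 FPKM in ClpX cKO, 5118 to 6054 FPKM in ClpP cKO and 8758 to 18783 FPKM in control libraries, and no marker of these lists was at 0 in every library. In these spermatid markers ClpX cKO 1, at 3019 FPKM, and Control 3, at 8758 FPKM, each lay towards the other groups. In such bulk libraries fewer cells of a type and less RNA per cell cannot be told apart. The part of these markers in the changes below was not tested.

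Of the 10 genes, Atf4, Sesn2, Ppp1r15a and Cebpb rose in both knockouts, Ddit3 fell slightly in ClpX cKO, and Atf5 and Chac1 did not pass the test. A gene was tested when its mean was at least 1 FPKM over the 9 libraries, which 7 of 10 members were, and a change was called when limma on log2(FPKM + 1) gave it an adjusted p (Benjamini-Hochberg) under 0.05. Trib3, Nupr1 and Atf3 lay under this minimum. In ClpX cKO 4 of the 7 tested members rose and 1 fell, where 65.6% of all 17266 tested genes were called, 32.1% up and 33.5% down. In ClpP cKO 4 of 7 rose and 0 fell, where 44.7% of all tested genes were called, 20.7% up and 24% down. Values of ClpX cKO lay wholly above control for 4 of 7 and wholly below for 1 of 7, against 34.8% and 35% of all tested genes, and values of ClpP cKO wholly above for 4 of 7, against 31.2%. With Control 3 and ClpX cKO 1 left out, 4 members were called in ClpX cKO and 5 in ClpP cKO, where 66.3% and 47.2% of all tested genes were called. They were not the same members: Cebpb was lost in ClpX cKO (adjusted p = 0.094) and Chac1 was gained in ClpP cKO (adjusted p = 0.038). The members' median log2 change was 0.62 in ClpX cKO and 0.55 in ClpP cKO, against -0.00077 and 0.01 over all tested genes. Chac1 entered the test through the knockouts alone, since its control mean was 0.878 FPKM. Both knockouts were compared with the same controls.

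**Figure D1:**
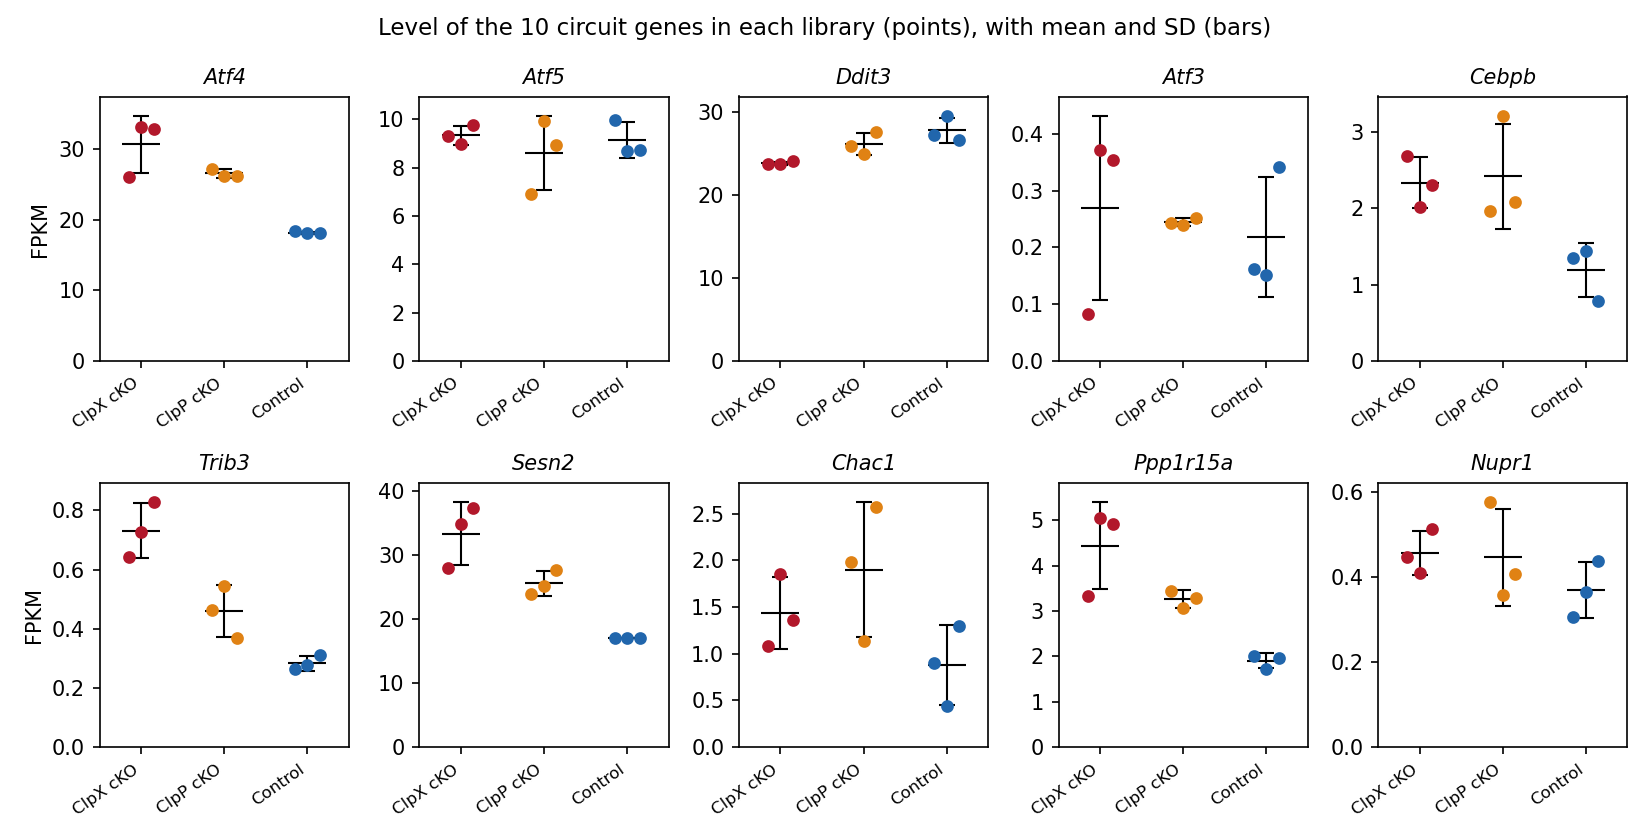
Level in FPKM (vertical axes, each from 0) of the 10 circuit genes in the 3 ClpX cKO, 3 ClpP cKO and 3 control libraries; each point is a library, long bars are means and short bars SD. The control points of Sesn2 lie within 17.01 to 17.14 FPKM, below all 6 knockout points, whereas the groups of Atf5, Chac1, Nupr1 and Atf3 overlap.

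The factor at the head of the circuit rose in both knockouts. Atf4 (ENSMUSG00000042406, chromosome 15, 80255184 to 80257541, plus strand) was at 26.1, 33.2 and 32.9 FPKM in ClpX cKO, at 27.3, 26.2 and 26.3 FPKM in ClpP cKO and at 18.4, 18.2 and 18.1 FPKM in control libraries. All 6 knockout values lay above the control values, and ClpX cKO 1 lay just below the lowest ClpP cKO value. In log2 terms Atf4 rose by 0.72 (SE 0.09, limma adjusted p = 4.8e-04, 1.64-fold) in ClpX cKO and by 0.52 (SE 0.09, adjusted p = 0.0086, 1.44-fold) in ClpP cKO. The share of tested protein-coding genes that lay below Atf4 was 86.9% in ClpX cKO and 82.9% in ClpP cKO, against 72.6% in control. Atf4 has no overlapping gene in the table.

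Ddit3, which encodes CHOP, a C/EBP family factor downstream of ATF4 that is known for its role in cell death under lasting stress, did not rise with Atf4. Ddit3 (ENSMUSG00000025408, chromosome 10, 127290774 to 127296288, plus strand) was at 23.7, 23.8 and 24.1 FPKM in ClpX cKO, at 25.9, 25.0 and 27.6 FPKM in ClpP cKO and at 27.2, 29.5 and 26.6 FPKM in control libraries. The ClpX cKO values lay below all others, and ClpP cKO overlapped with control. The log2 change was -0.21 (SE 0.06, adjusted p = 0.018, limma) in ClpX cKO and -0.08 (SE 0.06, adjusted p = 0.30) in ClpP cKO. In ClpX cKO the value was 0.0067 (adjusted p = 0.93) when libraries were scaled by their own total of gene reads and 0.033 (adjusted p = 0.68) after quantile normalization. These scalings also moved the median of all tested genes, which was -0.00077 as deposited, 0.18 with own totals and 0.092 after quantile normalization. Relative to the other genes Ddit3 moved little with own totals: 39.2% of tested genes had a lower change than Ddit3 as deposited, 40.8% with own totals and 46.4% after quantile normalization. The ClpX cKO call ended without Control 2, where it was -0.17 (adjusted p = 0.074), and by voom on recovered reads without a filter (-0.22, adjusted p = 0.10). Atf4 rose in ClpX cKO by 0.93 with own totals and 0.95 after quantile normalization. Ddit3 shares 68 bases with Mars on the other strand, whose level was 60.6 ± 13.8 FPKM in ClpX cKO, 68.8 ± 8.78 FPKM in ClpP cKO and 17.7 ± 1.18 FPKM in control (SD, n = 3 each). Whether reads were assigned by strand is not stated.

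Cebpb, a C/EBP factor that dimerises with ATF4 and other bZIP proteins, rose in both knockouts at a low level. Cebpb (ENSMUSG00000056501, chromosome 2, 167688915 to 167690418, plus strand) was at 2.68, 2.01 and 2.30 FPKM in ClpX cKO, at 1.96, 3.21 and 2.08 FPKM in ClpP cKO and at 1.35, 1.44 and 0.780 FPKM in control libraries. All knockout values lay above all control values, and the knockouts overlapped. The log2 change was 0.62 (SE 0.18, limma adjusted p = 0.013) in ClpX cKO and 0.64 (SE 0.18, adjusted p = 0.021) in ClpP cKO. The ClpP cKO call ended with no filter on low values (adjusted p = 0.052), without Control 3 (0.50, adjusted p = 0.055) and without ClpP cKO 2 (0.48, adjusted p = 0.068), and the ClpX cKO call ended when Control 3 and ClpX cKO 1 were left out together (0.40, adjusted p = 0.094). Cebpb shares 908 bases with Tmem189 on the other strand.

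Atf5, a close relative of ATF4 that in mammalian cells is linked to the mitochondrial unfolded protein response, showed no difference past the test. Atf5 (ENSMUSG00000038539, chromosome 7, 44812256 to 44816658, minus strand) was at 9.29, 8.97 and 9.76 FPKM in ClpX cKO, at 6.92, 9.93 and 8.94 FPKM in ClpP cKO and at 9.99, 8.67 and 8.72 FPKM in control libraries. The 3 groups overlapped. The log2 change was 0.03 (SE 0.12, adjusted p = 0.82, limma) in ClpX cKO and -0.09 (SE 0.12, adjusted p = 0.56) in ClpP cKO. Atf5 shares 571 bases with Nup62 and 272 with Il4i1, both on the other strand.

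Atf3, a bZIP repressor and early stress gene, rested on 3 to 14 reads per library. Atf3 (ENSMUSG00000026628, chromosome 1, 191170296 to 191218039, minus strand) had 3, 14 and 13 reads in ClpX cKO, 9, 8 and 9 reads in ClpP cKO and 5, 5 and 10 reads in control libraries. The groups overlapped, and the lowest and the highest library were both ClpX cKO. Without a filter on low values the log2(FPKM + 1) change was 0.05 in ClpX cKO (limma adjusted p = 0.75) and 0.03 in ClpP cKO (adjusted p = 0.89). Leaving out Control 3 and ClpX cKO 1 together gave 0.24 (adjusted p = 0.0071) in ClpX cKO.

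Among the targets, the inhibitor Sesn2 rose in both knockouts. Sestrin 2 restrains mTORC1 when leucine is short and is induced by ATF4. Sesn2 (ENSMUSG00000028893, chromosome 4, 132492032 to 132510501, minus strand) was at 28.0, 34.9 and 37.4 FPKM in ClpX cKO, at 23.9, 25.2 and 27.8 FPKM in ClpP cKO and at 17.14, 17.01 and 17.08 FPKM in control libraries. The groups were fully separate, with ClpX cKO highest. On the log2 scale Sesn2 rose by 0.92 (SE 0.11, limma adjusted p = 4.5e-04, 1.89-fold) in ClpX cKO and by 0.55 (SE 0.11, adjusted p = 0.0091, 1.47-fold) in ClpP cKO. Sesn2 shares 6089 bases of its span with Gm12981 on the same strand, which was at 1.12 FPKM in ClpX cKO, 1.22 FPKM in ClpP cKO and 0.329 FPKM in control on average.

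Trib3, a pseudokinase that binds ATF4 and CHOP and limits their activity, was rare but separated all 3 groups. Trib3 (ENSMUSG00000032715, chromosome 2, 152337422 to 152344032, minus strand) had 23, 27 and 30 reads in ClpX cKO, 17, 18 and 13 in ClpP cKO and 8, 9 and 9 in control libraries. Its level was 0.642, 0.726 and 0.827 FPKM in ClpX cKO, 0.464, 0.544 and 0.368 FPKM in ClpP cKO and 0.263, 0.277 and 0.311 FPKM in control libraries. Every ClpX cKO library lay above every ClpP cKO library, and every ClpP cKO library above every control. The ratio of mean FPKM to control was 2.58 in ClpX cKO and 1.62 in ClpP cKO. With no filter on low values the log2(FPKM + 1) change was 0.43 (SE 0.08, limma adjusted p = 0.0064) in ClpX cKO and 0.18 (adjusted p = 0.20) in ClpP cKO. On the reads recovered from the FPKM values, limma voom gave 1.31 (SE 0.35, adjusted p = 0.010) in ClpX cKO and 0.64 (adjusted p = 0.28) in ClpP cKO. The ClpX cKO call was kept in all 19 alternatives run for this gene, with adjusted p up to 0.023, and the ClpP cKO change was called with protein-coding genes only (adjusted p = 0.045). In the fit of log2(FPKM + 1) with no filter, over 41170 genes, 5 of all 10 members rose and 1 fell in ClpX cKO, where 13.9% of all genes rose and 15.3% fell, and 3 of 10 rose in ClpP cKO, where 5.82% rose. These shares include genes under 1 FPKM, whereas 7 of 10 members lie above it. Over the 17266 genes above it, in the main fit, 32.1% rose in ClpX cKO and 20.7% in ClpP cKO.

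**Figure D2:**
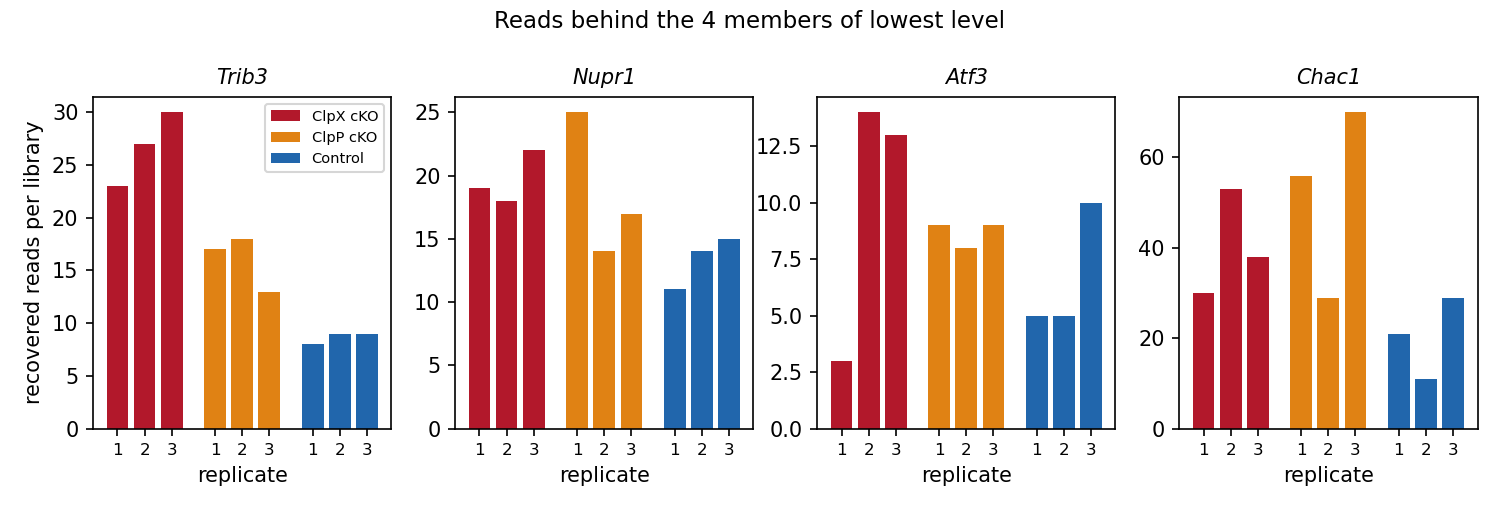
Reads recovered per library (vertical axis) for the 4 members of lowest level, Trib3, Nupr1, Atf3 and Chac1; each bar is a library, coloured by group. Trib3 sums to 80 reads in ClpX cKO, 48 in ClpP cKO and 26 in control, with no overlap between groups.

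Chac1, which breaks down glutathione and is a target of ATF4 and CHOP, had the largest SE of the 7 tested members. Chac1 (ENSMUSG00000027313, chromosome 2, 119351229 to 119354381, plus strand) was at 1.09, 1.85 and 1.36 FPKM in ClpX cKO, at 1.98, 1.14 and 2.58 FPKM in ClpP cKO and at 0.896, 0.440 and 1.30 FPKM in control libraries. The reads behind these values were 30, 53 and 38 in ClpX cKO, 56, 29 and 70 in ClpP cKO and 21, 11 and 29 in control libraries. The groups overlapped. Chac1 had a log2 change of 0.39 (SE 0.23, limma adjusted p = 0.18) in ClpX cKO and 0.62 (SE 0.23, adjusted p = 0.059) in ClpP cKO. The ClpP cKO change was called when libraries were scaled by their own total of gene reads (0.71, adjusted p = 0.037), by voom (1.18, adjusted p = 0.048), with protein-coding genes only (adjusted p = 0.039), without Control 3 (0.78, adjusted p = 0.043) and without ClpP cKO 2 (0.82, adjusted p = 0.044).

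Ppp1r15a encodes GADD34, the subunit that brings a phosphatase to eIF2alpha and so switches the response off. Ppp1r15a (ENSMUSG00000040435, chromosome 7, 45522916 to 45526268, minus strand) was at 3.33, 5.06 and 4.93 FPKM in ClpX cKO, at 3.45, 3.06 and 3.30 FPKM in ClpP cKO and at 2.02, 1.72 and 1.97 FPKM in control libraries. All knockout values lay above all control values, and ClpX cKO 1 lay within the range of ClpP cKO. On the log2 scale Ppp1r15a rose by 0.89 (SE 0.13, limma adjusted p = 7.2e-04, 1.85-fold) in ClpX cKO and by 0.56 (SE 0.13, adjusted p = 0.014, 1.47-fold) in ClpP cKO. Ppp1r15a shares 717 bases with Tulp2 on the other strand, a gene that was lower in the knockouts, at 96.2 ± 23.7 FPKM in ClpX cKO and 130.5 ± 14.5 FPKM in ClpP cKO, against 209.5 ± 18.7 FPKM in control (SD, n = 3 each).

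Nupr1, a small nuclear protein induced with the circuit, rested on 11 to 25 reads per library. Nupr1 (ENSMUSG00000030717, chromosome 7, 126623249 to 126630861, minus strand) had 19, 18 and 22 reads in ClpX cKO, 25, 14 and 17 in ClpP cKO and 11, 14 and 15 in control libraries, and the knockouts overlapped with control in FPKM. Without a filter the log2(FPKM + 1) change was 0.09 (limma adjusted p = 0.50) in ClpX cKO and 0.08 (adjusted p = 0.60) in ClpP cKO.

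**Figure D3:**
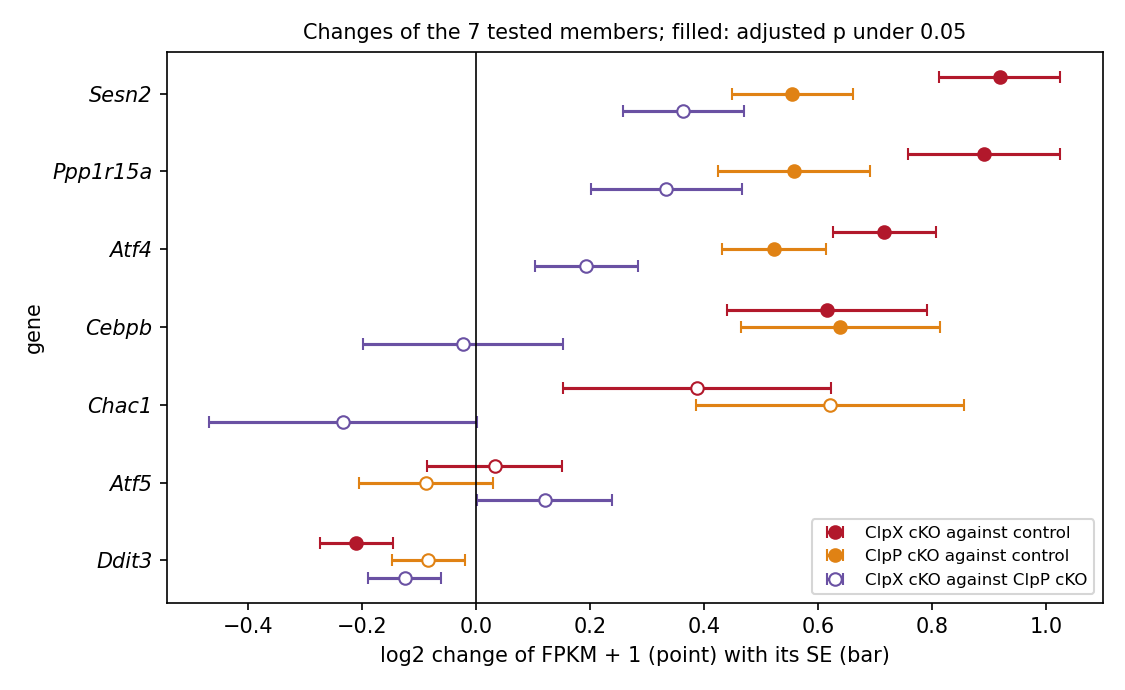
Log2 change of FPKM + 1 with its SE (horizontal axis) for the 7 tested circuit genes in each knockout against control and between the knockouts (ClpX cKO against ClpP cKO); filled points passed an adjusted p of 0.05 in limma. Against control Sesn2, Ppp1r15a, Atf4 and Cebpb lie right of 0 in both knockouts and are filled, Ddit3 lies left of 0, and no point of ClpX cKO against ClpP cKO is filled.

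The comparison of ClpX cKO with ClpP cKO asked whether the circuit differs between loss of the unfoldase and loss of the protease. None of the 7 tested members was called (limma, 0 of 7), where 0.104% of all tested genes were called. At an unadjusted p under 0.05 there were 2 of 7, Sesn2 and Ppp1r15a, against 27.8% of all tested genes, and voom on the recovered reads also called 0 members. The differences of ClpX cKO from ClpP cKO were 0.36 for Sesn2 (adjusted p = 0.098), 0.33 for Ppp1r15a (adjusted p = 0.15) and 0.19 for Atf4 (adjusted p = 0.20). Without ClpX cKO 1 these were called, at 0.48 (adjusted p = 0.0087), 0.49 (adjusted p = 0.011) and 0.30 (adjusted p = 0.0094), and the count of all called genes was 4758 in place of 18. Both counts turn on ClpX cKO 1. By rank of single libraries, 1 of the 7 tested members (Sesn2) lay wholly above ClpP cKO and 1 (Ddit3) wholly below, where 14.9% of all tested genes lay above and 14.9% below. Trib3, in the fit without a filter, differed by 0.25 (adjusted p = 0.24). For Cebpb the difference was -0.02 (adjusted p = 0.94), and for Ddit3 -0.13 (adjusted p = 0.23).

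The order of the levels changed with the group. In control libraries Ddit3 stood above Atf4 and Atf4 above Sesn2, with no overlap between these 3 genes. In ClpP cKO the same 3 genes overlapped, at means of 26.6 FPKM for Atf4, 26.2 FPKM for Ddit3 and 25.6 FPKM for Sesn2. In ClpX cKO Sesn2 and Atf4 overlapped and both lay above Ddit3, at 33.4 ± 4.87, 30.7 ± 4.02 and 23.9 ± 0.185 FPKM (SD, n = 3 each). Over the 9 libraries the level of Ppp1r15a had a Pearson r of 0.987 with that of Atf4, Sesn2 0.975, Trib3 0.903, Cebpb 0.717 and Chac1 0.606. For Nupr1 the r was 0.516, for Atf3 0.422, for Atf5 -0.026 and for Ddit3 -0.768. These values describe 9 libraries in 3 groups that share a difference between groups, and 1293 of 12820 other tested protein-coding genes had an r with Atf4 above 0.95.

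**Figure D4:**
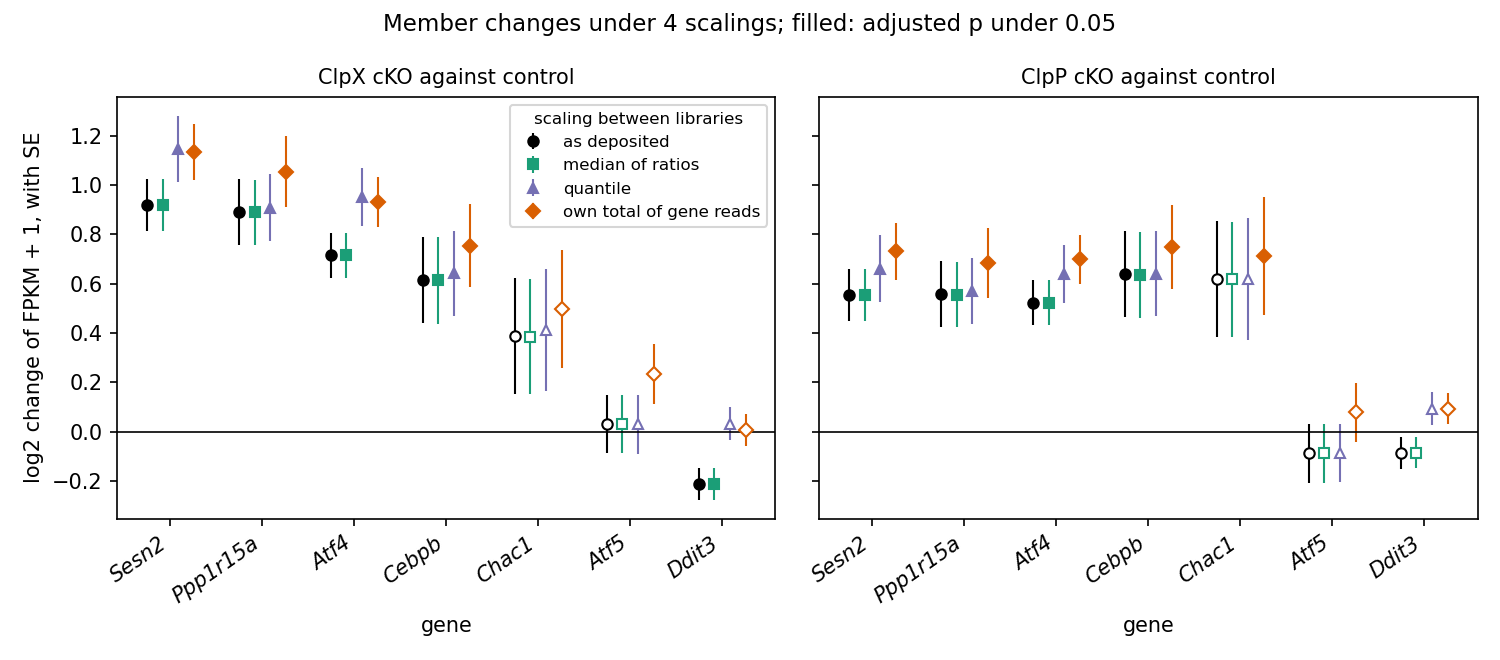
Log2 change of FPKM + 1 with its SE (vertical axis) for the 7 tested circuit genes under the deposited scaling and 3 others, in ClpX cKO and ClpP cKO against control; filled points passed an adjusted p of 0.05 in limma. Ddit3 crosses 0 in both comparisons under quantile normalization and under scaling by each library's own total, while Atf4, Sesn2, Ppp1r15a and Cebpb stay above 0 under all 4; own totals move the median of all tested genes to 0.18 in ClpX cKO and 0.16 in ClpP cKO.

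Other genes of the pathway were read from lists chosen with earlier results of these data known, and each count is to be read against all tested genes. Of these 32.1% rose and 33.5% fell in ClpX cKO and 20.7% rose and 24% fell in ClpP cKO under the deposited scaling. Among the protein-coding ones alone 40.1% rose and 30.5% fell in ClpX cKO, and 25.8% rose and 23.5% fell in ClpP cKO. After quantile normalization 36.5% rose and 27.2% fell in ClpX cKO and 22.6% rose and 16% fell in ClpP cKO, and with own totals 42.7% rose and 24.7% fell in ClpX cKO and 34.7% rose and 13.9% fell in ClpP cKO.

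Of 18 tested genes for eIF2alpha kinases, phosphatases and the relay, 9 rose and 2 fell in ClpX cKO and 7 rose and 2 fell in ClpP cKO. With both directions together 11 of 18 were called in ClpX cKO, where 65.6% of all tested genes were, and 9 of 18 in ClpP cKO, where 44.7% were. With own totals 14 rose and 2 fell in ClpX cKO and 12 rose and 0 fell in ClpP cKO. After quantile normalization 12 rose and 1 fell in ClpX cKO and 9 rose and 0 fell in ClpP cKO. Their median log2 change was 0.17 in ClpX cKO and 0.20 in ClpP cKO, against -0.00077 and 0.01 over all tested genes. Eif2ak4, which encodes GCN2, the kinase that senses uncharged tRNA, was at 3.98 ± 0.432 FPKM in ClpX cKO and 3.32 ± 0.0696 FPKM in ClpP cKO, against 2.36 ± 0.0112 FPKM in control (SD, n = 3 each). Its log2 change was 0.56 (limma adjusted p = 7.1e-04) in ClpX cKO and 0.36 (adjusted p = 0.013) in ClpP cKO. Impact, an inhibitor of GCN2, rose as well, by 0.74 in ClpX cKO and 0.42 in ClpP cKO, as did Eif2s3x, a subunit of eIF2, by 0.64 in ClpX cKO and 0.41 in ClpP cKO. Eif2b4, a subunit of the exchange factor eIF2B that phosphorylated eIF2alpha blocks, fell in ClpX cKO (-0.49, adjusted p = 7.5e-04). Its decrease in ClpP cKO (-0.33) was not called under quantile normalization (-0.08) or scaling by own totals (-0.15). Eif2s1, which encodes eIF2alpha itself, was also lower in ClpX cKO (-0.44, limma adjusted p = 7.9e-04) and in ClpP cKO (-0.24, adjusted p = 0.024) under the deposited scaling. Its ClpP cKO decrease was not called under either other scaling, where 0 genes of this list fell. After quantile normalization 1 gene of the list fell in ClpX cKO, so at most 1 of Eif2b4 and Eif2s1 kept its call there. The paralogue of Ppp1r15a, Ppp1r15b, whose product acts on eIF2alpha without stress, rose by 0.44 in ClpX cKO.

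Genes of amino acid supply rose in most cases. Of 27 tested of 30 amino acid genes induced by ATF4, 23 rose and 1 fell in ClpX cKO (median 0.73) and 22 rose and 0 fell in ClpP cKO (median 0.57), against the 32.1% and 20.7% of all tested genes that rose. The 2 other scalings gave 24 up in ClpX cKO, and 21 and 23 up in ClpP cKO, where 0 fell under either. Without Control 3 and ClpX cKO 1, 22 rose and 1 fell in ClpX cKO and 22 rose and 2 fell in ClpP cKO. Mars, the methionyl-tRNA synthetase, had a log2 change of 1.70 in ClpX cKO and 1.90 in ClpP cKO, and Slc1a4, a neutral amino acid carrier, of 1.81 in ClpX cKO and 1.85 in ClpP cKO. Slc1a4 was at 5.27 ± 1.54 FPKM in ClpX cKO and 5.37 ± 1.36 FPKM in ClpP cKO, against 0.757 ± 0.230 FPKM in control (SD, n = 3 each), so it entered the test through the knockouts alone, the 1 gene of the list that did. Asns, the asparagine synthetase and a classical ATF4 target, went the other way in ClpX cKO, with 25.8 ± 2.52 FPKM in ClpX cKO and 36.0 ± 5.41 FPKM in ClpP cKO, against 49.6 ± 10.03 FPKM in control (SD, n = 3 each). Its log2 change was -0.90 (limma adjusted p = 0.0017) in ClpX cKO and -0.44 (adjusted p = 0.056) in ClpP cKO. The ClpP cKO decrease was called by voom with the filter (-0.45, adjusted p = 0.037) and without it (adjusted p = 0.049). It was also called in limma with a minimum of 5 FPKM (adjusted p = 0.047) and with protein-coding genes only (adjusted p = 0.042). Leaving out Control 3 gave -0.61 (adjusted p = 0.018), or adjusted p = 0.013 with ClpX cKO 1 left out as well.

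Of 16 tested of 21 other stress targets of ATF4 and CHOP, 8 rose and 1 fell in ClpX cKO (median 0.24) and 5 rose and 1 fell in ClpP cKO (median 0.17). In both directions together 9 of 16 were called in ClpX cKO and 6 of 16 in ClpP cKO, where 65.6% and 44.7% of all tested genes were called. With own totals 10 rose in ClpX cKO and 8 in ClpP cKO. Ddit4, which encodes the mTORC1 inhibitor REDD1, was at 21.1 ± 3.26 FPKM in ClpX cKO and 16.0 ± 1.99 FPKM in ClpP cKO, against 9.94 ± 0.767 FPKM in control (SD, n = 3 each). It rose by 1.01 on the log2 scale in ClpX cKO (limma adjusted p = 4.7e-04) and by 0.63 in ClpP cKO (adjusted p = 0.0098). The autophagy genes Map1lc3b and Sqstm1 rose in ClpX cKO, by 0.59 and 0.63. Herpud1, a component of the degradation machinery of the endoplasmic reticulum, fell in ClpX cKO (-1.32, adjusted p = 0.0011). Sesn1, the paralogue of Sesn2, rose by 0.72 in ClpX cKO and 0.40 in ClpP cKO, and Nupr1l, the paralogue of Nupr1, fell in both (-1.35 in ClpX cKO and -0.82 in ClpP cKO). Of the 9 paralogues of members tested, 5 rose and 1 fell in ClpX cKO and 4 rose and 1 fell in ClpP cKO. With own totals 8 rose in ClpX cKO, and without Control 3 and ClpX cKO 1 only 2 rose in ClpP cKO. Among these paralogues Trib1 had a control mean under 1 FPKM, so it entered the test through the knockouts alone.

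**Figure D5:**
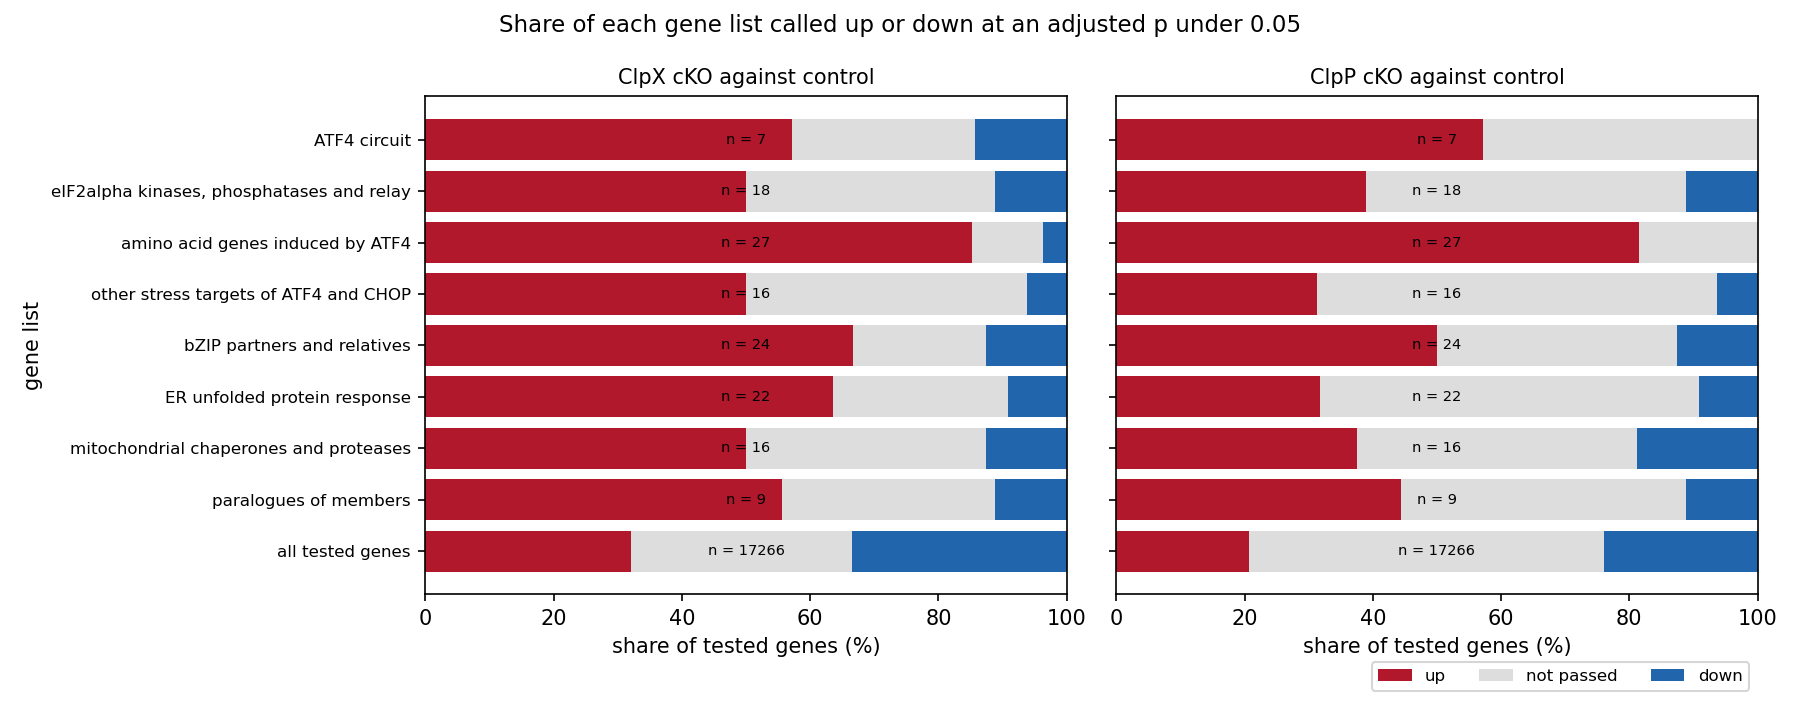
Share of tested genes called up (left), not passed (middle) and called down (right) on a horizontal axis in percent, in each pathway list and over all tested genes, for ClpX cKO and ClpP cKO against control. In the list of amino acid genes 23 of 27 rose in ClpX cKO and 22 of 27 in ClpP cKO, where 32.1% and 20.7% of all tested genes rose.

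Of 24 tested of 29 bZIP partners and relatives, 16 rose and 3 fell in ClpX cKO (median 0.46) and 12 rose and 3 fell in ClpP cKO (median 0.27), where without Control 3 and ClpX cKO 1 the counts were 8 and 4. Fos and Fosl2, both among these 24, had control means under 1 FPKM, so they entered the test through the knockouts. Fos also had a mean under 1 FPKM in a knockout. The medians of this list include both genes. Mafg, a small Maf protein, rose by 1.02 in ClpX cKO and 0.52 in ClpP cKO, and Dbp, a clock-related factor, by 0.73 in ClpX cKO and 0.52 in ClpP cKO. Nfe2l1 rose by 0.68 and Cebpa by 0.90 in ClpX cKO. Creb3l4 and Crem, both strongly transcribed in the testis, fell in ClpX cKO (-1.40 and -0.71). Of 22 genes of the unfolded protein response of the endoplasmic reticulum, 14 rose, 2 fell and 6 were not called in ClpX cKO (median 0.29). In ClpP cKO 7 of these 22 rose, 2 fell and 13 were not called (median 0.12). These counts moved with the scaling: in ClpX cKO 19 rose and 0 fell after quantile normalization and 17 rose and 1 fell with own totals, and in ClpP cKO 15 rose and 1 fell after quantile normalization and 14 rose and 1 fell with own totals. Xbp1, the factor spliced by IRE1, rose by 0.86 in ClpX cKO and 0.65 in ClpP cKO, and Pdia4, a disulfide isomerase, by 0.67 in ClpX cKO and 0.49 in ClpP cKO. The co-chaperone gene Dnajb9 fell in both (-0.43 in ClpX cKO and -0.48 in ClpP cKO), and the ClpX cKO decrease was not called under quantile normalization (-0.095, adjusted p = 0.20). Of 16 mitochondrial chaperones and proteases, 8 rose and 2 fell in ClpX cKO (median 0.24) and 6 rose and 3 fell in ClpP cKO (median 0.15), that is 10 of 16 and 9 of 16 called, where 65.6% and 44.7% of all tested genes were called. The list holds the targeted genes, so the calls of Clpx in ClpX cKO (-2.01) and of Clpp in ClpP cKO (-0.77) follow from the deletions. Clpx also fell in ClpP cKO (-0.58), though it was not called there under quantile normalization (-0.28). With own totals 13 rose and 2 fell in ClpX cKO and 11 rose and 2 fell in ClpP cKO, and after quantile normalization 12 rose and 2 fell in ClpX cKO and 8 rose and 1 fell in ClpP cKO. Hspd1, the mitochondrial chaperonin, rose by 0.89 in ClpX cKO and 0.59 in ClpP cKO. Sertoli markers had medians of 0.95 in ClpX cKO and 0.54 in ClpP cKO and elongating spermatid markers of -2.33 in ClpX cKO and -1.26 in ClpP cKO, and the part of these markers in the list counts was not tested.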

How the data were processed

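The deposited table holds FPKM values computed by the authors, per the file headers, for 54532 genes with a gene length in bases, a column of another unit. GRCm38 (mm10) is named in the submitters' processing notes, and the aligner and counter are not given in the sources used here. Values times length were whole multiples of a step per library for 100% of values (tolerance 0.01), so reads were recovered. The per-million denominator implied by the steps was 1.07 ± 0.017 times the library's own gene reads in ClpX cKO, 1.05 ± 0.0037 in ClpP cKO and 0.919 ± 0.028 in control (SD, n = 3 each). Scaling by own totals therefore moved the median log2 change of all genes to 0.18 in ClpX cKO and 0.16 in ClpP cKO.

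Genes with a mean of at least 1 FPKM (17266, of which 12827 protein-coding) were fitted on log2(FPKM + 1) by limma (version 3.58.1, R version 4.3.3). The model held all 9 libraries, leaving 6 residual degrees of freedom, and its variance prior followed a trend. Calls were two-sided at a Benjamini-Hochberg adjusted p under 0.05. Fold changes are of FPKM + 1 and understate low genes, and errors are SE of the fit or SD over 3 libraries. Python 3.11.15 with pandas 2.3.3, numpy 2.4.6 and matplotlib 3.10.9 made tables and plots, and the fit was tested on simulated data. Alternatives were another pseudocount (0.1), minimum (none, or 5 FPKM), scaling, library set, replicate block, robust prior, protein-coding genes and voom, and voom without a filter was added after seeing the data. Members and lists were chosen with earlier results of these data known. From each pathway list up to 3 called genes each way with the smallest adjusted p could be named, with the 5 genes most like Atf4 and Ddit3. Genes that overlap a member on the genome were named for that overlap.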

Additional observations from a re-analysis of the deposited data

How the results depend on the processing

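The calls of Atf4, Sesn2 and Ppp1r15a in both knockouts against control were kept under every alternative that tested them. Of the member counts, a minimum of 5 FPKM, which left 4 members tested, gave 3 called in ClpX cKO and 2 in ClpP cKO, and 6871 genes in ClpX cKO. Leaving out each library in turn gave 4 to 5 members in ClpX cKO, 4 to 4 in ClpP cKO and 0 to 3 in ClpX cKO against ClpP cKO, with 9825 to 11779, 3617 to 8729 and 0 to 4758 genes called in these comparisons. In ClpX cKO against ClpP cKO the genes called were 29 after quantile normalization, 89 with only the 6 libraries compared, 40 by voom, 106 by voom without a filter and 5149, with 3 members, without Control 3 and ClpX cKO 1. Voom called 11323 genes in ClpX cKO and 7897 in ClpP cKO against control. The replicate block left 5, 4 and 0 members and 11291, 7845 and 1 genes called in ClpX cKO and in ClpP cKO against control and in ClpX cKO against ClpP cKO. Deviations from the group means correlated at -0.07 to 0.23 between same-numbered libraries, and 7 of 9 libraries correlated best with their own number. Whether replicate numbers mark pairs or batches is not given, and the main fit held no replicate term.

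Directions turned in these cases, none of them called under that setting, and the cause was not tested. Against control, Ddit3 was at 0.033 in ClpX cKO and 0.094 in ClpP cKO after quantile normalization, and at 0.0067 and 0.094 with own totals. Atf5 in ClpP cKO was at 0.078 with own totals. In ClpX cKO against ClpP cKO, Atf3 was at -0.10 by voom without a filter and -0.020 with a pseudocount of 0.1, and Cebpb at 0.0018 after quantile normalization and 0.0045 with own totals. Leaving out each library gave Atf3 -0.0055 to 0.17 in ClpX cKO and -0.0047 to 0.10 in ClpP cKO against control, and -0.039 to 0.13 between the knockouts. In the same way Atf5 ranged over -0.19 to 0.045 in ClpP cKO against control and -0.012 to 0.22 between the knockouts, where Cebpb ranged over -0.12 to 0.14 and Nupr1 over -0.032 to 0.075. Atf3, Nupr1 and Trib3 rest on 3 to 30 reads per library.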

Other observations

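The tested protein-coding genes whose level over the 9 libraries was most like that of Atf4 were Pex19 (Pearson r 0.996), Lmnb1 (0.994), Zdhhc18 (0.994), Rcbtb1 (0.993) and Fn1 (0.993), none of them a circuit gene. Pex19 encodes a peroxisome import factor, Lmnb1 a nuclear lamin and Fn1 fibronectin of the extracellular matrix. For Ddit3 they were Ogdh (0.974), Tmem235 (0.970), Tob1 (0.969), Carm1 (0.967) and Uqcrc1 (0.961), of which Ogdh and Uqcrc1 encode mitochondrial enzymes of the citric acid cycle and the respiratory chain. Only 9 of 12820 genes had an r above 0.95 with Ddit3, against 1293 with Atf4. The 9 libraries share 3 groups, so these values are a description.

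Markers of other cells and stages not given above were as follows under the deposited scaling. The background here and in the next paragraph is all tested genes. Of these 32.1% rose and 33.5% fell in ClpX cKO, and 20.7% rose and 24% fell in ClpP cKO. With own totals 42.7% rose and 24.7% fell in ClpX cKO, and 34.7% rose and 13.9% fell in ClpP cKO. After quantile normalization the shares were 36.5% and 27.2% in ClpX cKO and 22.6% and 16% in ClpP cKO. Leydig cell markers rose in 3 of 10 tested in ClpX cKO and 1 of 10 in ClpP cKO. That count depended on the scaling, since 8 rose in ClpX cKO both after quantile normalization and with own totals of gene reads, and 5 and 4 rose in ClpP cKO. Peritubular and stromal markers rose in 6 of 9 in ClpX cKO and 2 of 9 in ClpP cKO, against 8 and 4 with own totals and 9 and 6 without Control 3 and ClpX cKO 1. Of 2 endothelial markers 1 rose in ClpX cKO, and of 4 erythroid markers 1 fell there (0 with own totals), with 0 called in either list in ClpP cKO. Meiotic prophase markers rose in 7 of 13 and fell in 2 in ClpX cKO, and rose in 7 and fell in 1 in ClpP cKO, while with own totals 10 rose and 1 fell in ClpX cKO and 11 rose and 0 fell in ClpP cKO.

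Pachytene and diplotene markers fell in 10 of 12 in ClpX cKO and 8 of 12 in ClpP cKO. After quantile normalization 6 fell and 2 rose in ClpX cKO and 2 fell and 1 rose in ClpP cKO, and with own totals 7 fell in ClpX cKO and 5 fell and 2 rose in ClpP cKO. All 10 round spermatid markers fell in both knockouts as deposited. With own totals 10 fell in ClpX cKO and 9 in ClpP cKO, and after quantile normalization 9 fell in ClpX cKO and only 1 of 10 in ClpP cKO, where their median was -0.51.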
